A study of Homo sapiens with 6 samples.

Results

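The receptor subunit genes of fast and slow synaptic transmission were described in Y79, an established line of human retinoblastoma cells with MYCN amplification. The members were chosen by gene symbol and cover the ionotropic and metabotropic glutamate receptors, the GABA-A, rho and GABA-B receptors, the glycine receptors and the nicotinic acetylcholine receptors. Of 17013 genes with values, 51 met this rule, and the other subunit genes among the 67 protein-coding ones that RefSeq names by the same symbols are not analysed here. Y79 cells were transduced with a short hairpin RNA targeting the transcription factor gene MYCN (3 libraries, labelled MYCN knockdown), or with a control hairpin (3 libraries, labelled MYCN wild-type), and their polyadenylated RNA was sequenced from both fragment ends. The labels place all 6 libraries in batch 1. The series text calls them independent biological replicates, and neither the hairpin sequence nor the number of hairpins is given in the sources used here.

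Receptor subunits decide what a neuron can hear. Ionotropic receptors are tetramers or pentamers of subunits around an ion channel, so a receptor type depends on which subunit transcripts a cell makes together, whereas metabotropic receptors signal through G proteins. In the retina, photoreceptors release glutamate, ON bipolar cells receive it through the metabotropic receptor encoded by GRM6, and amacrine and horizontal cells use GABA and glycine.

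The deposited estimated counts summed to 15490283 to 15762714 in the MYCN hairpin libraries and to 15516000 to 16078413 in the control libraries after rounding. Levels are given as CPM, counts scaled to library totals and TMM factors, a method that assumes most genes do not differ. MYCN itself stood at 2413, 2284 and 2195 CPM with the MYCN hairpin, against 3046, 3128 and 2876 CPM with the control hairpin, a log2 fold change of -0.39 ± 0.043 (SE) with an adjusted p of 8.9e-11 by edgeR. The targeted transcript therefore stayed abundant. Photoreceptor markers were present in every library: CRX, OTX2, NRL and RCVRN all exceeded 100 counts, the 9 markers summed to 1608 to 1660 CPM with the MYCN hairpin and 1507 to 1590 CPM with the control hairpin, and the cone opsin gene OPN1SW had 1 count in 1 library. Of 8 photoreceptor markers tested 7 rose and OTX2 fell. Amacrine, horizontal and ganglion cell markers, 9 of them tested, had 2 higher and 3 lower and summed to 245 to 249 CPM with the MYCN hairpin and 252 to 273 CPM with the control hairpin. Müller glia markers, 3 of them tested, had 1 higher (VIM) and 1 lower (GLUL) and summed to 1172 to 1205 CPM with the MYCN hairpin and 1150 to 1195 CPM with the control hairpin. Nearly all of that sum was GLUL (means of 655 and 837 CPM) and VIM (528 and 329 CPM). RLBP1, AQP4 and GFAP had at most 2 counts in a library. SOX9 had 9, 24 and 11 counts with the MYCN hairpin and 1, 1 and 3 with the control hairpin. The part of these markers in the results below was not tested. In bulk RNA, fewer cells of a type and less RNA per cell cannot be told apart.

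Of the 51 members, 36 were detectable with the MYCN hairpin and 32 with the control hairpin, where detectable means at least 1 count in each of the 3 libraries and at least 10 over the group. All 32 were also detectable with the MYCN hairpin, and GLRB, CHRNB4, GRIN2A and GRIN3A also met the rule there. GRIN3A met it with exactly 10 counts, against 7 with the control hairpin, and its ratio of 1.28 had an exact 95% counting interval of 0.440 to 3.97. The other 15 had at most 5 counts in any library. GABRE, GLRA1 and GRM3 were at 0 in every library, which allows up to 0.0603 CPM over the MYCN hairpin libraries and 0.0672 CPM over the control libraries (3 counts, counting error only). Over all 17013 genes too, more were above 0 with the MYCN hairpin (15182 to 15213 in a library) than with the control hairpin (14785 to 14863). The share of all genes that met the detection rule was not computed.

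**Figure D1:**
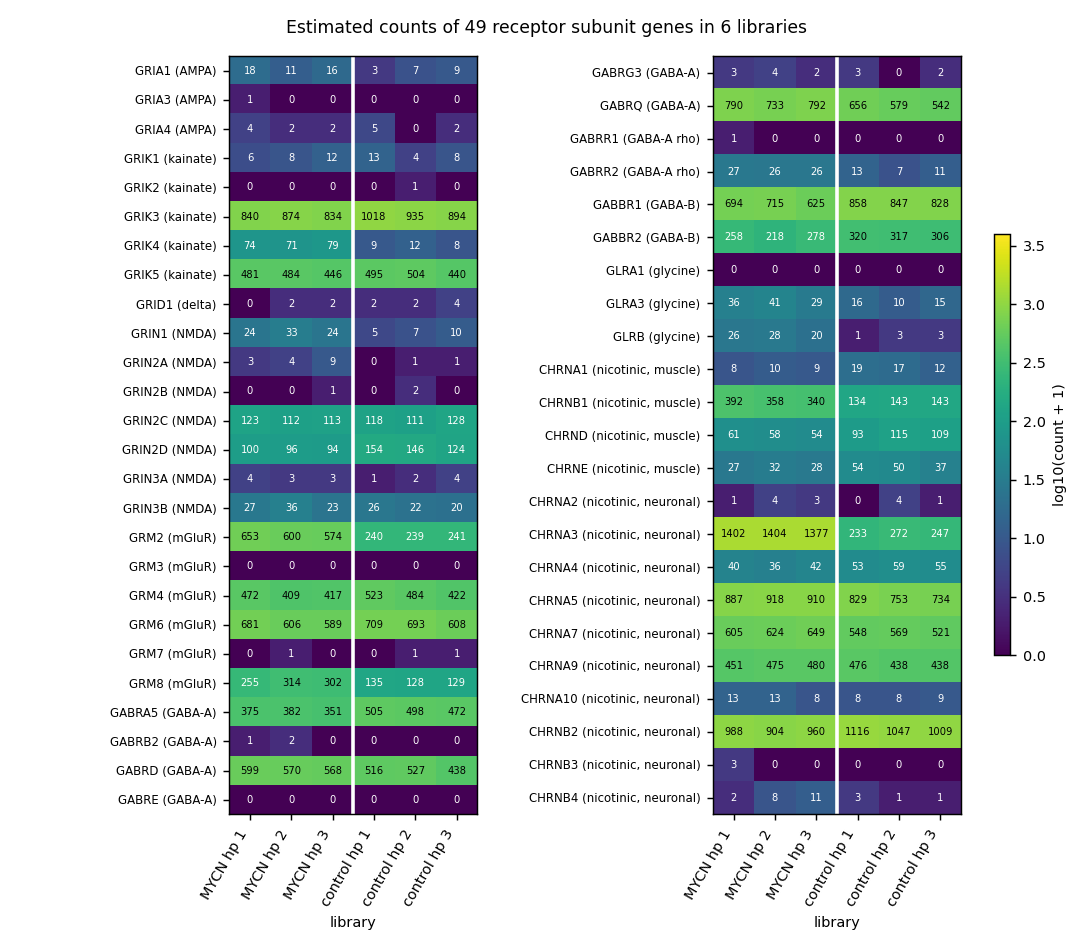
Rounded estimated counts (numbers in the cells; color, log10(count + 1)) of 49 receptor subunit genes in the 3 libraries with the MYCN hairpin (MYCN hp, left) and the 3 with the control hairpin (control hp, right), with the receptor family in parentheses. CHRNA3 and GRIK4 are brighter on the left, and GABRE, GLRA1 and GRM3 are at 0.

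The edgeR quasi-likelihood test was run over 12819 genes, and 31 members passed its filter on low counts. At an adjusted p under 0.05, 11 of them rose with the MYCN hairpin, 14 fell and 6 did not pass. Over all genes tested the same rule called 75.8% in either direction, 38.0% higher and 37.9% lower, against 80.6%, 35.5% and 45.2% of the 31 members, so the share of members called lay near the background. Their median log2 fold change was -0.10, and that of all genes 0.0045. Libraries of the 2 groups were separate for 26 of the 31, against 76.8% of all genes tested. Of the 31 members, 9 were called at least 2-fold higher and 1 at least 2-fold lower, against 9.24% and 5.25% of all genes tested. CHRNA1, GABRR2, GLRA3, GLRB, GRIA1, GRIK4 and GRIN1 reached the filter's minimum in all libraries of only the group where they were higher, so they entered the test through that group. All of them but CHRNA1 are among the 9, so that count rests largely on members that entered this way. Scaled by library size alone, the median of all genes moved to 0.19 and the members split into 14 higher and 11 lower (51.5% and 26.1% of all genes).

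**Figure D2:**
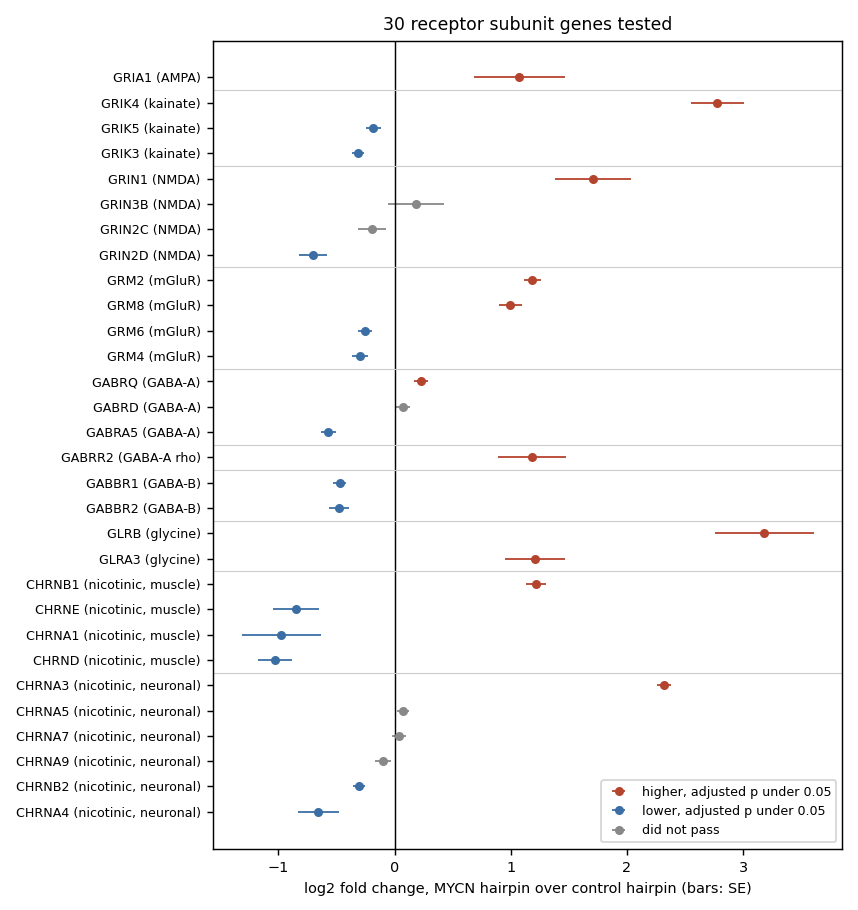
Log2 fold change of 30 tested members (MYCN hairpin over control hairpin, bars give the SE), ordered by receptor family. GLRB (3.18), GRIK4 (2.78) and CHRNA3 (2.32) lie farthest to the right, and CHRND (-1.03) farthest to the left.

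Among the neuronal nicotinic receptor genes, which encode acetylcholine-gated cation channels, CHRNA3 rose 4.99-fold, CHRNB2 and CHRNA4 fell and the 3 others tested did not pass. CHRNA3, the alpha subunit typical of autonomic ganglia, measured 83.4, 84.7 and 84.0 CPM with the MYCN hairpin, against 15.3, 18.1 and 17.1 CPM with the control hairpin. All 3 MYCN hairpin libraries lay far above all controls, and the log2 fold change was 2.32 ± 0.062 (SE, adjusted p = 9.5e-31). CHRNA5, an accessory subunit that joins receptors built on CHRNA3 or CHRNA4, measured 52.8, 55.4 and 55.5 CPM with the MYCN hairpin and 54.4, 50.2 and 50.9 CPM with the control hairpin. These groups overlapped, and the log2 fold change of 0.07 ± 0.053 did not pass (adjusted p = 0.21). CHRNB4, the beta subunit that pairs with CHRNA3 in ganglia, had 2, 8 and 11 counts with the MYCN hairpin and 3, 1 and 1 with the control hairpin. The groups overlapped, the ratio of the summed counts was 3.77 with an exact 95% counting interval of 1.38 to 12.8, and the gene was below the filter.

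CHRNA5, CHRNA3 and CHRNB4 lie side by side on chromosome 15 (GRCh38, 78565520 to 78595269, 78593052 to 78621295 and 78624119 to 78727754). CHRNA5 runs on the plus strand and the others on the minus strand, and the exons of CHRNA3 and CHRNA5 overlap by 198 bases at their 3' ends, which is 4.16% of the CHRNA3 exons. The strand setting of the counting is not given in the sources used here, so reads in that stretch cannot be assigned. A further 23.0% of the CHRNA5 exon bases lie opposite an antisense transcript. Of the genes on either side, IREB2 was at -0.04 (log2 fold change; adjusted p = 0.43), HYKK at 0.29 (adjusted p = 0.11), PSMA4 at -0.09 (adjusted p = 0.040) and ADAMTS7 at -0.17 (adjusted p = 0.13). Per kilobase of transcript, the level of CHRNA3 relative to CHRNA5 was 1.79, 1.73 and 1.71 with the MYCN hairpin, against 0.318, 0.409 and 0.381 with the control hairpin. CHRNA3 was thus the more abundant of the pair with the MYCN hairpin and the less abundant with the control hairpin.

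CHRNB2, the main beta subunit of brain receptors, and CHRNA4, its usual alpha partner, both fell. CHRNB2 measured 58.8, 54.5 and 58.6 CPM with the MYCN hairpin, against 73.3, 69.8 and 70.0 CPM with the control hairpin (log2 fold change -0.31 ± 0.051, adjusted p = 7.2e-07). CHRNA4 was much scarcer, at 2.38, 2.17 and 2.56 CPM with the MYCN hairpin and 3.48, 3.93 and 3.81 CPM with the control hairpin (-0.66 ± 0.175, adjusted p = 9.2e-04). Neither pair of groups overlapped. CHRNA7, which forms receptors by itself, measured 36.0 to 39.6 CPM with the MYCN hairpin and 36.0 to 37.9 CPM with the control hairpin, and did not pass (log2 fold change 0.04, adjusted p = 0.54). Its value is uncertain because the partial duplicate CHRFAM7A, at 6.10 ± 0.77 CPM with the MYCN hairpin and 5.32 ± 0.82 CPM with the control hairpin (SD, n = 3 each), shares exons with it. CHRNA9, known from cochlear hair cells, measured 26.8 to 29.3 CPM with the MYCN hairpin and 29.2 to 31.2 CPM with the control hairpin (-0.10, adjusted p = 0.16). Its hair cell partner CHRNA10 had 8 to 13 counts with the MYCN hairpin and 8 or 9 with the control hairpin, below the filter, and overlaps NUP98 on the same strand by 133 bases. CHRNA2 had at most 4 counts in a library, and CHRNB3 had 3 counts, all in MYCN hairpin replicate 1.

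The promoters of these genes are shown because MYC family proteins bind the E-box CACGTG and GGGCGG, the GC box, is a common promoter element. RefSeq (GRCh38.p14) gave a window of 250 bases before to 50 after the start for 38 of the 51 members. CACGTG, which reads the same on both strands, was found in 2 of the 38 windows (5.26%), those of CHRNA7 at -49 and GRM4 at -77 from the start, against 7.26% of 35116 windows of the same length. GGGCGG on either strand was found in 23 (60.5%), against 45.0% of all windows. Members gave a single window per gene, whereas all windows were limited neither to protein-coding genes nor to a single window per gene. The shares are therefore of unlike sets. The sequences below hold the 250 bases before the start of CHRNA3, the abundant member with the largest rise, and of the members with an E-box, neither of which rose, with CACGTG and GGGCGG or its complement CCGCCC in capitals. They lie at chr15:78620997-78621246 (minus strand, CHRNA3), chr15:32030233-32030482 (plus strand, CHRNA7) and chr6:34146088-34146337 (minus strand, GRM4).
CHRNA3: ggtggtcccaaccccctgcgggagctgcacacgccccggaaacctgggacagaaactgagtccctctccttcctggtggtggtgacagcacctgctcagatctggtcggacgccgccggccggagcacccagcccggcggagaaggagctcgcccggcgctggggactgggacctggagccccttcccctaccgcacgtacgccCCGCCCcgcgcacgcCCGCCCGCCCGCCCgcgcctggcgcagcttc
CHRNA7: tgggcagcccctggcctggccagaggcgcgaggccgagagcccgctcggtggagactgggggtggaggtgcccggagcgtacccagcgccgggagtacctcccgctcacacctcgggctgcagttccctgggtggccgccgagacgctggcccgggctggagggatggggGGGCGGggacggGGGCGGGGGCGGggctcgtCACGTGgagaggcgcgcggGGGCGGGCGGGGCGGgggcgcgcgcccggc
GRM4: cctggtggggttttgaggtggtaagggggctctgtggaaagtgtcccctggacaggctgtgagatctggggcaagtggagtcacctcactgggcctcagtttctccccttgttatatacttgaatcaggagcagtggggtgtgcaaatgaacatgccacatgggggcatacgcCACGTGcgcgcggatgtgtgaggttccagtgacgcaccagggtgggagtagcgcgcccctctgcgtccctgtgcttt
The CHRNA3 window held GC boxes near the start and no CACGTG, and CHRNA7 held both. A match describes these letters only.

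The muscle nicotinic receptor genes moved in opposite directions. This receptor of the neuromuscular junction is a pentamer of the subunits encoded by CHRNA1, CHRNB1 and CHRND with CHRNE in adults. CHRNB1 rose to 23.3, 21.6 and 20.7 CPM with the MYCN hairpin, against 8.80, 9.54 and 9.91 CPM with the control hairpin (log2 fold change 1.22 ± 0.089, adjusted p = 6.5e-16). CHRND fell to 3.63, 3.50 and 3.29 CPM with the MYCN hairpin, against 6.10, 7.67 and 7.56 CPM with the control hairpin (-1.03 ± 0.142, adjusted p = 2.2e-08). CHRNE, at 1.61, 1.93 and 1.71 CPM with the MYCN hairpin and 3.54, 3.33 and 2.57 CPM with the control hairpin, fell by 0.85 (SE 0.20, adjusted p = 2.2e-04). CHRNA1, which carries the main part of the binding site, had 8, 10 and 9 counts with the MYCN hairpin and 19, 17 and 12 with the control hairpin (-0.98 ± 0.338, adjusted p = 0.0091; DESeq2 adjusted p = 0.084). CHRNA1 entered the test through the control hairpin group, where it was higher. In all 4 genes the groups were separate. CHRNB1 made up 76.5% ± 1.2 of the summed level per kilobase of these 4 genes with the MYCN hairpin and 41.6% ± 1.7 with the control hairpin (SD, n = 3 each). CHRNE is uncertain, since 40.9% of its exon bases lie opposite those of C17orf107, and 14.6% of the CHRNB1 exon bases are shared with a noncoding transcript on the same strand. Among 7 muscle markers, MYOD1 and DES had 1 count each over the 6 libraries, and the summed level was 121 to 128 CPM with the MYCN hairpin and 95.7 to 101 CPM with the control hairpin. Most of that sum was TTN, with means of 99.96 CPM with the MYCN hairpin and 65.4 CPM with the control hairpin. Of the 5 markers tested, 1 rose (TTN) and 3 fell (MYOG, MYH3 and CKM), and their part in the result was not tested.

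**Figure D3:**
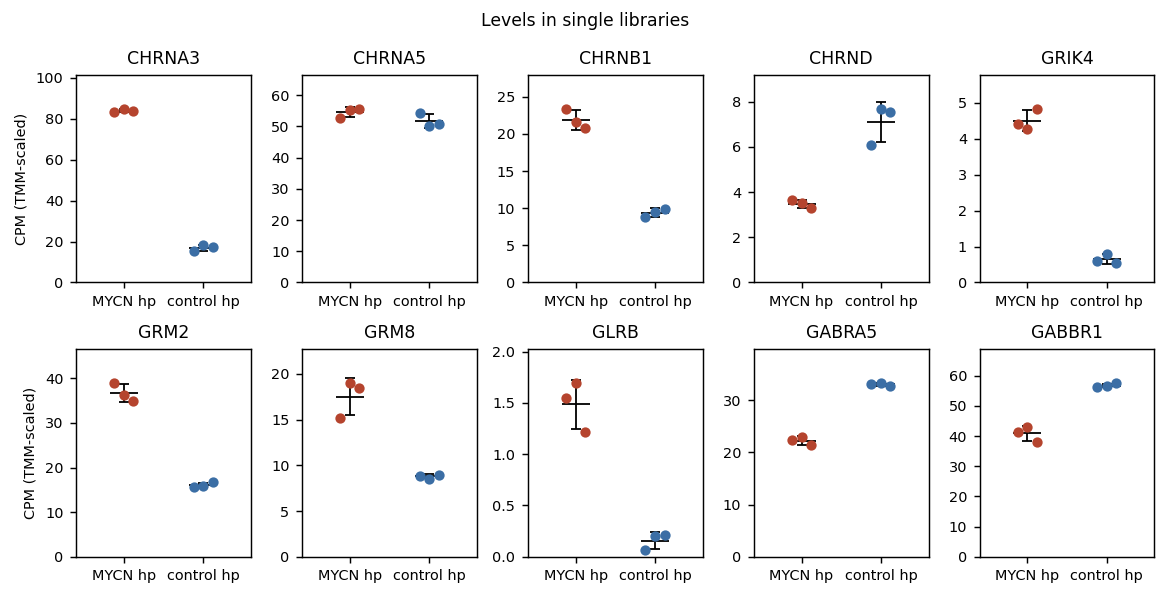
Level in CPM (TMM-scaled, axes start at 0) of 10 members in single libraries (points) with the mean and SD (bars), for the MYCN hairpin (red, left) and the control hairpin (blue, right). The groups overlap only for CHRNA5, and CHRNA3, CHRNB1, GRIK4, GRM2, GRM8 and GLRB are higher with the MYCN hairpin.

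The metabotropic glutamate receptor genes split by member. GRM2, a presynaptic receptor that lowers cyclic AMP, rose to 38.9, 36.2 and 35.0 CPM with the MYCN hairpin, against 15.8, 15.9 and 16.7 CPM with the control hairpin (log2 fold change 1.19 ± 0.070, adjusted p = 7.4e-19). GRM8, a receptor of the same signalling type that in rodents is found at photoreceptor terminals, rose to 15.2, 18.9 and 18.4 CPM with the MYCN hairpin, against 8.86, 8.54 and 8.94 CPM with the control hairpin (0.99 ± 0.099, adjusted p = 6.2e-12). GRM4 and GRM6 belong to the same sequence group as GRM8 but were lower. GRM4 measured 28.1, 24.7 and 25.4 CPM with the MYCN hairpin and 34.3, 32.3 and 29.3 CPM with the control hairpin (-0.29 ± 0.069, adjusted p = 2.0e-04). GRM6 measured 40.5, 36.6 and 35.9 CPM with the MYCN hairpin and 46.5, 46.2 and 42.2 CPM with the control hairpin (-0.26 ± 0.060, adjusted p = 2.0e-04). The falls of GRM4 and GRM6 were lost with library sizes alone (adjusted p = 0.15 and 0.27). Per kilobase, GRM2 stood at 1.93, 1.99 and 1.96 times GRM6 with the MYCN hairpin and at 0.682, 0.695 and 0.798 times GRM6 with the control hairpin. GRM7 had at most 1 count in a library.

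GRM6 is the defining receptor of ON bipolar cells, and the genes of its cascade ranged from absent to abundant. The G protein subunit genes were well expressed, GNAO1 at 25.8 ± 1.0 CPM with the MYCN hairpin and 26.9 ± 1.3 CPM with the control hairpin, and GNB3 at 532 ± 12 CPM with the MYCN hairpin and 472 ± 47 CPM with the control hairpin (SD, n = 3 each). NYX, which holds the complex at the synapse, and the bipolar transcription factor gene ISL1 were at 0 in every library. TRPM1, the channel it closes, had 4, 4 and 7 counts with the MYCN hairpin and 1, 3 and 5 with the control hairpin, and GPR179 had 7 in each MYCN hairpin library and 1, 2 and 3 in the controls. RGS7 had 18, 27 and 22 counts with the MYCN hairpin and 6, 3 and 5 with the control hairpin. LRIT3 had 24, 22 and 20 counts with the MYCN hairpin and 13, 7 and 8 with the control hairpin. RGS11 had 3 to 6 counts with the MYCN hairpin and 6 or 7 with the control hairpin. Of the 8 cascade genes listed, 4 were tested: GNB3, RGS7 and LRIT3 rose and GNAO1 did not pass. Of all genes tested, 38.0% rose. All 9 ON bipolar markers summed to 96.5 to 102 CPM with the MYCN hairpin and 87.1 to 92.6 CPM with the control hairpin, most of it GRM6, PRKCA and CABP5.

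Of the kainate receptor genes, GRIK4 rose 6.86-fold. GRIK4 and GRIK5 encode high-affinity subunits that need a partner from GRIK1, GRIK2 or GRIK3 to form a channel. GRIK4 measured 4.40, 4.28 and 4.82 CPM with the MYCN hairpin, against 0.591, 0.800 and 0.555 CPM with the control hairpin, without overlap (log2 fold change 2.78 ± 0.229, adjusted p = 2.5e-14). The summed counts were 224 with the MYCN hairpin and 29 with the control hairpin, a ratio of 6.93 with an exact 95% counting interval of 4.69 to 10.6. GRIK4 entered the test through the MYCN hairpin group, where it was higher. GRIK3 was the main partner, at 49.98, 52.7 and 50.9 CPM with the MYCN hairpin and 66.8, 62.4 and 62.0 CPM with the control hairpin (-0.32 ± 0.052, adjusted p = 9.1e-07). GRIK5 measured 28.6, 29.2 and 27.2 CPM with the MYCN hairpin and 32.5, 33.6 and 30.5 CPM with the control hairpin (-0.18 ± 0.064, adjusted p = 0.0093). That fall did not pass without MYCN hairpin replicate 3 (adjusted p = 0.053) or with library sizes alone (adjusted p = 0.97). Despite its rise GRIK4 reached 5.24% ± 0.42 of the summed kainate level per kilobase with the MYCN hairpin, against 0.669% ± 0.13 with the control hairpin (SD, n = 3 each). GRIK1 had 6, 8 and 12 counts with the MYCN hairpin and 13, 4 and 8 with the control hairpin, and GRIK2 had 1 count in all.

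NMDA receptor genes were low. GRIN1, the subunit that every NMDA receptor contains, had 24, 33 and 24 counts with the MYCN hairpin and 5, 7 and 10 with the control hairpin. It rose by 1.71 ± 0.324 on the log2 scale (adjusted p = 9.9e-06), and its groups did not overlap. It entered the test through the MYCN hairpin group, where it was higher. GRIN2D, a glutamate-binding subunit of slow receptors, fell to 5.95, 5.79 and 5.73 CPM with the MYCN hairpin, against 10.1, 9.74 and 8.60 CPM with the control hairpin (-0.70 ± 0.118, adjusted p = 1.2e-06). GRIN2C measured 6.76 to 7.32 CPM with the MYCN hairpin and 7.40 to 8.87 CPM with the control hairpin, which did not overlap but did not pass (-0.19 ± 0.119, adjusted p = 0.13). Per kilobase, GRIN1 stayed below GRIN2D, at 0.237, 0.340 and 0.253 times GRIN2D with the MYCN hairpin and 0.0321, 0.0474 and 0.0798 times GRIN2D with the control hairpin. GRIN2A had 3, 4 and 9 counts with the MYCN hairpin and 0, 1 and 1 with the control hairpin, a ratio of 7.18 with an exact 95% counting interval of 1.69 to 64.3, and was below the filter. GRIN3B, at 23 to 36 counts with the MYCN hairpin and 20 to 26 with the control hairpin, did not pass (adjusted p = 0.50). GRIN3A had 3 or 4 counts with the MYCN hairpin and 1 to 4 with the control hairpin, and GRIN2B at most 2.

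AMPA and delta receptor genes were close to absent at this depth. GRIA1, a main subunit of fast excitatory receptors, had 18, 11 and 16 counts with the MYCN hairpin and 3, 7 and 9 with the control hairpin (log2 fold change 1.07 ± 0.393, adjusted p = 0.013). This call was lost with DESeq2 (adjusted p = 0.10), without MYCN hairpin replicate 1 (adjusted p = 0.061) and without control hairpin replicate 1 (adjusted p = 0.12). GRIA1 also entered the test through the MYCN hairpin group, where it was higher. GRIA4 had at most 5 counts in a library, GRIA3 had 1 count in all, and GRID1, of the delta family, at most 4.

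GABA-A receptors are chloride channels opened by GABA, and their subunit genes differed in direction. GABRA5, an alpha subunit of receptors outside synapses, fell to 22.3, 23.0 and 21.4 CPM with the MYCN hairpin, against 33.2, 33.2 and 32.7 CPM with the control hairpin (-0.57 ± 0.066, adjusted p = 2.9e-10). GABRQ, the theta subunit gene, measured 47.0, 44.2 and 48.3 CPM with the MYCN hairpin and 43.1, 38.6 and 37.6 CPM with the control hairpin, and rose by 0.23 ± 0.059 (adjusted p = 7.7e-04). GABRD, whose delta subunit also marks receptors outside synapses, measured 34.4 to 35.6 CPM with the MYCN hairpin and 30.4 to 35.1 CPM with the control hairpin (0.07, adjusted p = 0.29). GABRG3, a gamma subunit gene, had at most 4 counts in a library. GABRB2 had 3 counts, from MYCN hairpin libraries, and GABRE was at 0.

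GABRR2, a rho subunit of the receptors known from retinal bipolar cells, had 27, 26 and 26 counts with the MYCN hairpin and 13, 7 and 11 with the control hairpin, without overlap (log2 fold change 1.18 ± 0.293, adjusted p = 4.0e-04). GABRR2 entered the test through the MYCN hairpin group, where it was higher. GABRR1 had 1 count in all. The GABA-B receptor, a G protein-coupled dimer, needs both its subunits, and both fell alike. GABBR1 measured 41.3, 43.1 and 38.1 CPM with the MYCN hairpin and 56.3, 56.5 and 57.4 CPM with the control hairpin (-0.47 ± 0.055, adjusted p = 4.6e-10). GABBR2 measured 15.4, 13.1 and 16.96 CPM with the MYCN hairpin and 21.0, 21.1 and 21.2 CPM with the control hairpin (-0.48 ± 0.084, adjusted p = 2.5e-06). Their ratio per kilobase averaged 3.50 ± 0.66 with the MYCN hairpin and 3.43 ± 0.022 with the control hairpin (SD, n = 3 each).

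Of the 3 glycine receptor genes measured, GLRB and GLRA3 were higher with the MYCN hairpin, at low levels, and GLRA1 was at 0. GLRB and GLRA3 entered the test through the MYCN hairpin group, where they were higher. GLRB, the beta subunit that ties glycine receptors to the scaffold protein gephyrin, had 26, 28 and 20 counts with the MYCN hairpin and 1, 3 and 3 with the control hairpin. The groups were far apart, with a log2 fold change of 3.18 ± 0.426 (adjusted p = 1.1e-08) and a ratio of summed counts of 9.48 with an exact 95% counting interval of 4.38 to 24.4. GLRA3, an alpha subunit found in the inner retina of mice, had 36, 41 and 29 counts with the MYCN hairpin and 16, 10 and 15 with the control hairpin (1.21 ± 0.260, adjusted p = 7.0e-05). Per kilobase, GLRB stood at 2.03, 1.92 and 1.93 times GLRA3 with the MYCN hairpin and 0.175, 0.842 and 0.561 times GLRA3 with the control hairpin.

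**Figure D4:**
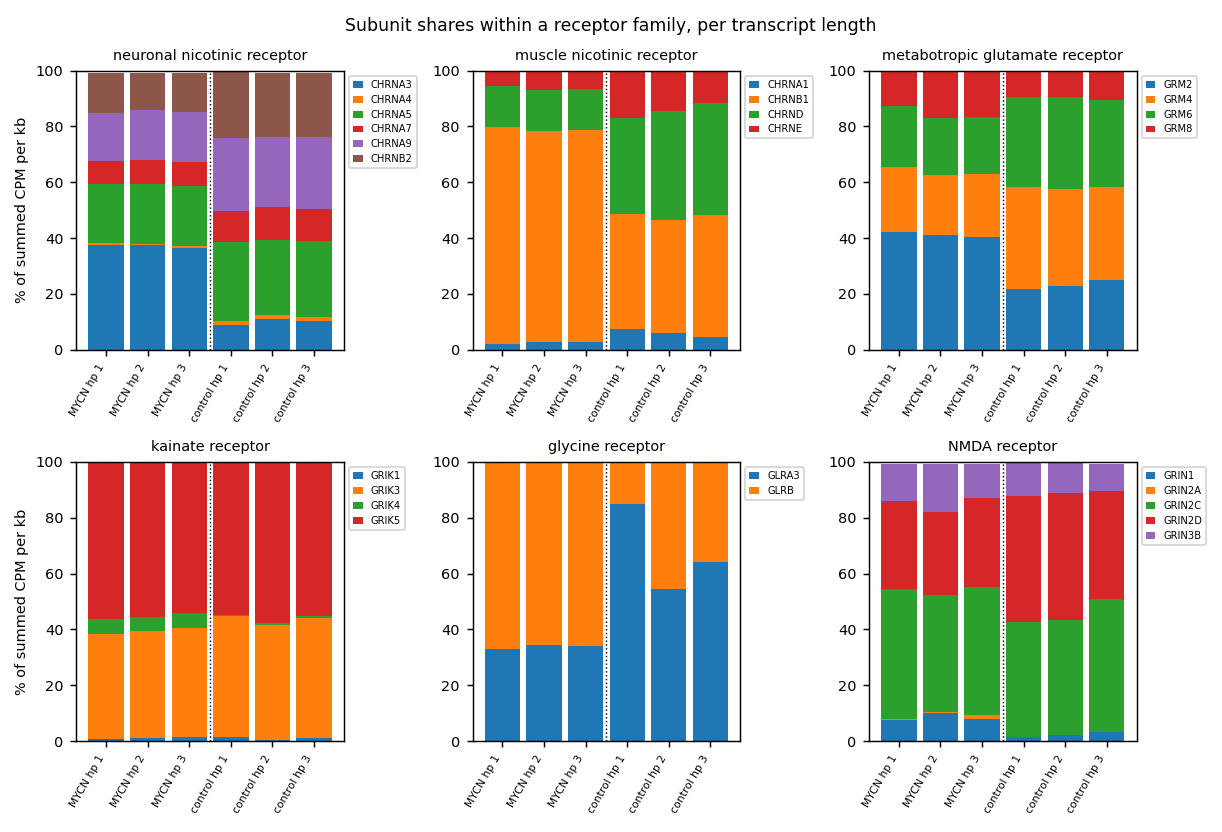
Share of each subunit gene in the summed level per kilobase of its receptor family (stacked bars, percent, genes with at least 1% in a library) for the 3 libraries with the MYCN hairpin (MYCN hp, left of the dotted line) and the 3 with the control hairpin (control hp, right). CHRNA3 makes up 37.2% of the neuronal nicotinic level with the MYCN hairpin and 10.1% with the control hairpin, and GRM2 makes up 41.3% of the metabotropic glutamate level with the MYCN hairpin and 23.2% with the control hairpin.

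Summed per kilobase, the neuronal nicotinic family was at 70.6 ± 1.3 with the MYCN hairpin and 51.9 ± 0.75 with the control hairpin, in CPM per kilobase (SD, n = 3 each). CHRNA3 alone accounted for 37.2% ± 0.58 of it with the MYCN hairpin and 10.1% ± 1.00 with the control hairpin. The metabotropic glutamate family summed to 28.2 ± 0.93 with the MYCN hairpin and 22.1 ± 0.80 with the control hairpin. Kainate receptors summed to 14.7 ± 0.32 with the MYCN hairpin and 16.5 ± 0.62 with the control hairpin, and with library sizes alone this difference turned round. NMDA receptors summed to 3.68 ± 0.15 with the MYCN hairpin and 4.33 ± 0.098 with the control hairpin.

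Among the members described here, the levels per kilobase with the MYCN hairpin were ordered as CHRNA3 (26.2 ± 0.20), GABRD (17.8), CHRNA5 (15.1), CHRNA9 (12.4) and GRM2 (11.6), of which only CHRNA9 and GRM2 overlapped between libraries. With the control hairpin the order was GABRD (16.9 ± 1.3), CHRNA5 (14.3), CHRNA9 (13.3), GABBR1 (12.5) and CHRNB2 (12.1), of which only GABBR1 and CHRNB2 overlapped. CHRNA3 (5.26) and GRM2 (5.12) stood lower there and overlapped. The lowest detectable members were GRIN3A and GRIN2A with the MYCN hairpin and GRIN1 and GRIA1 with the control hairpin, each pair overlapping.

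Genes whose proteins assemble, carry or anchor these receptors were read from a list of 73, of which 68 had values and 54 were tested. Of these 28 rose, 16 fell and 10 did not pass, with a median log2 fold change of 0.17 against 0.0045 for all genes, of which 38.0% rose and 37.9% fell. Scaled by library size alone, 36 of the list rose and 15 fell, where 51.5% of all genes rose and 26.1% fell. The nicotinic modulator gene LYPD6 rose to 40.2 ± 2.1 CPM with the MYCN hairpin, against 18.4 ± 0.38 CPM with the control hairpin (SD, n = 3 each; adjusted p = 9.2e-19). LHFPL3, a relative of the GABA-A receptor partner gene LHFPL4, rose by 2.06 and FRRS1L, which helps AMPA receptors assemble, by 1.79. NSF, the ATPase of membrane fusion that also binds an AMPA receptor subunit, fell to 70.3 ± 2.9 CPM with the MYCN hairpin, against 169 ± 3.8 CPM with the control hairpin (adjusted p = 9.6e-27). SHISA7, a GABA-A receptor partner, fell by 1.85.

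The receptors' closest partners did not all move with them. KCTD12, an auxiliary subunit of GABA-B receptors, fell by 0.70 (adjusted p = 2.7e-15), as both GABA-B genes did. Gephyrin, encoded by GPHN, rose by 0.14 (adjusted p = 0.013) where GLRB rose by 3.18. CACNG5, which encodes an AMPA receptor auxiliary subunit, rose to 94, 112 and 108 counts with the MYCN hairpin, against 8, 11 and 13 with the control hairpin, where GRIA1, the one detectable AMPA receptor gene of the 3 measured, stayed at 18 counts or fewer. Other AMPA receptor genes are not analysed here. NETO2, the kainate receptor auxiliary subunit gene, rose by 0.30 and NETO1 was at 0. RIC3, a nicotinic receptor chaperone, fell by 0.41, while TMEM35A, which helps receptors of CHRNA7 fold, rose to 29, 29 and 19 counts with the MYCN hairpin, against 15, 6 and 9 with the control hairpin. RAPSN, which clusters muscle receptors, had at most 1 count in a library.

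**Figure D5:**
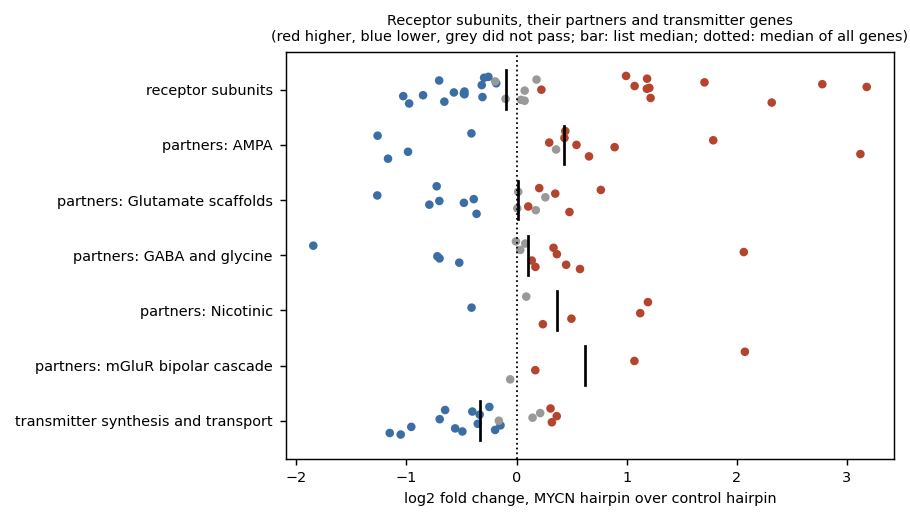
Log2 fold changes (MYCN hairpin over control hairpin) of the tested receptor subunits, their partner genes by receptor class, and transmitter synthesis and transport genes; each point is a gene (red higher, blue lower, grey did not pass), bars are list medians and the dotted line is the median of all genes. The receptor median is -0.10 and that of the transmitter genes -0.34.

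Of 30 genes for making and moving glutamate, GABA, glycine and acetylcholine, 28 had values and 19 were tested, of which 3 rose, 13 fell and 3 did not pass (median -0.34, against 0.0045 for all genes, of which 38.0% rose and 37.9% fell). Scaled by library size alone, 4 of the list rose and 10 fell, where 51.5% of all genes rose and 26.1% fell. SLC17A7, the vesicular glutamate transporter of photoreceptors, fell to 85.9 ± 3.3 CPM with the MYCN hairpin, against 139 ± 5.4 CPM with the control hairpin (SD, n = 3 each; adjusted p = 7.6e-18). ALDH5A1, which clears GABA breakdown products, fell by 1.15, the glutamine transporter gene SLC38A1 by 0.65 and the acetylcholine-making enzyme gene CHAT by 0.49. GAD1, which makes GABA, fell by 0.19 (adjusted p = 0.0050). SLC38A2, another glutamine transporter gene, rose by 0.31, the chloride importer gene SLC12A2 by 0.32 and the glutamate transporter gene SLC1A1 by 0.36. The vesicular GABA transporter gene SLC32A1 was at 0 in every library.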

How the data were processed

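Library titles gave the groups and replicate numbers. The values deposited by the authors are estimated counts, unscaled between libraries, with a row per gene symbol; 12.5% to 12.8% of values are not whole. Reads were placed on GRCh38, per the submitters' processing notes. Neither the aligner nor the counter, strand setting or gene models are given in the sources used here. Of 17035 rows, 22 without values were left out. No replicates held identical values (chi-square per degree of freedom 1.73 to 4.23 between replicate pairs). Counts were rounded and tested over all 12819 genes passing filterByExpr (minimum of 10 counts) by the quasi-likelihood method in edgeR 4.0.16 (R 4.3.3), TMM scaling, robust dispersions and Benjamini-Hochberg adjustment at 0.05. All adjusted p-values are over all genes; the SE derives from the F statistic, and p-values measure spread between these libraries. Counting intervals are exact 95% ones and cover counting error only. Lengths and positions are those of GENCODE 29 (GRCh38), with the longest principal coding transcript of each gene as its length. Every tested member, and untested ones with at least 10 counts in a group, are named, except some that are not reported here; for partner and transmitter genes the 3 with the smallest p in each direction are named, and KCTD12, GPHN, CACNG5, NETO1, NETO2, RIC3, TMEM35A, RAPSN, CHAT, GAD1, SLC32A1, the members with fewer counts and the neighbours of CHRNA5 were chosen after their values were seen. All 8 genes listed for the GRM6 cascade are named too. The members and lists were chosen with earlier results of these data known. The method was tested on simulated data. Alternatives were DESeq2 1.42.0, limma-voom (limma 3.58.1), other scalings and filters, a replicate block, and each library left out. Python 3.11.15, pandas 2.3.3 and matplotlib 3.10.9 were used.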

Additional observations from a re-analysis of the deposited data

How the results depend on the processing

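The number of members called was 25 and stayed between 23 and 27 under every alternative run; without a filter GRIN2A (log2 fold change 2.63, adjusted p = 0.0083) and CHRNB4 (1.83, adjusted p = 0.017) were added. Without 1 library it was 24 or 25. Of 432 comparisons of a member's log2 fold change with an alternative, 419 kept direction and call, 8 lost and 3 gained a call, and 2 changed sign, both in members that had not passed: CHRNA9 (0.0817 with library sizes alone) and GRIN3B (-0.014 without MYCN hairpin replicate 2; the range over the libraries left out was -0.014 to 0.31). The calls gained were CHRNA5, CHRNA7 and GABRD, at 0.25, 0.22 and 0.26 with library sizes alone. The summed kainate level per kilobase, MYCN minus control hairpin, was -1.84 and became 0.120 with library sizes alone; the rise of all log2 fold changes under that scaling is built into it. With the replicate block 25 members and 9909 genes were called, against 25 and 9723 without it. Libraries with the same number correlated at 0.12, 0.10 and 0.027 in their deviations from the group means. Numbers 1 and 2 passed the 0.1 set as the smallest correlation for pairing, and number 3 did not. Libraries 1 of both groups correlated best with each other, as did libraries 2, and control library 3 correlated best with MYCN hairpin library 2. The titles give only the number, so whether these libraries were paired cannot be told. Under the other detection rules 29 to 42 members were detectable with the MYCN hairpin and 25 to 40 with the control hairpin. Depth limits the members with few counts, whose ratios have wide counting intervals.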
